A study of Gallus gallus with 24 samples.

Results

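Heat shock proteins and chaperones were taken from the deposited table by the names of its identifiers: HSP, HS..._CHICK, DNAJ, CCT, TCP..._CHICK and PDIA, without the sulfotransferases. The pattern took 45 of 17934 genes, and 40 of these were among the 11187 genes with enough counts to be tested. The tissue was abdominal fat of cockerels at 7 wk of age. Of the 8 birds, 4 were from the fat line (FL) and 4 from the lean line (LL), broiler lines that had been selected in opposite directions on abdominal fat weight over several generations and had no further treatment in the labels. Each bird gave 1 RNA-Seq library that was sequenced in 3 runs, whose counts were added up, leaving 4 replicates per line. The labels call the birds biological replicates and do not give their sires or hatch. The titles, source names and line entries of the LL samples say LL while their description fields say FL, and the line was taken from the titles, on which every direction given here rests.

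Chaperones bind unfolded or partly folded proteins and let them fold without sticking to one another. HSP70 proteins do so in cycles of ATP binding and hydrolysis that J-domain proteins (the DNAJ genes) start and HSP110 proteins end by exchanging the nucleotide, HSP90 and the CCT ring act on later folding steps of chosen clients, small heat shock proteins hold unfolded chains without ATP, and the PDIA enzymes form and shuffle disulfide bonds in the endoplasmic reticulum (ER). Heat shock factors are the transcription factors that switch many of these genes on under stress, and adipocytes need ER chaperones for the adipokines and lipase they secrete.

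Counts per bird ranged from 4299772 to 10878211 in FL and from 5548867 to 12876999 in LL, and levels are given as CPM, the count per 1000000 counts of the library after TMM scaling. Adipocyte markers were abundant in every bird: the 8 of 10 symbols that were found summed to 17650 to 23800 CPM in FL and 12460 to 21360 CPM in LL. Stromal markers (7 of 8 found) summed to 41600 to 66110 CPM in FL and 53120 to 72440 CPM in LL, endothelial markers (8 of 8) to 3677 to 4213 and 3588 to 4575 CPM, leukocyte markers (5 of 10) to 914.7 to 1099 and 812.6 to 1037 CPM, and the 1 erythroid marker found of 9 had 61.2 to 171.1 CPM in FL and 40.0 to 124.4 CPM in LL. The library of FL replicate 4 stood apart in some of its muscle genes. The 6 of 10 muscle markers found summed to 12810 CPM in that bird, to 876.9 to 1141 CPM in the other FL birds and to 798 to 1078 CPM in the LL birds. ACTA1, skeletal muscle actin, had 11220 CPM in FL replicate 4, against 78.0 to 86.5 CPM in the other FL birds and 65.4 to 108 CPM in LL birds, and TNNT3, fast skeletal troponin T, had 739.5 CPM in FL replicate 4, 3.49 to 3.66 CPM in the other FL birds and 4.78 to 6.91 CPM in LL birds. DES was also highest in FL replicate 4, at 160.7 CPM. The other muscle markers found were not raised in it. ACTA2 (396.5 CPM) and MYH11 (227.7 CPM) were lowest in this bird, and MYLK (70.6 CPM) was inside the LL range. No marker of any list was at or under 3 counts in all birds. Values without this bird are given beside many of the members whose result moved with it, and a comparison of all members without it follows further below.

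None of the 40 tested members was a DE gene between FL and LL, where DE means an adjusted p of at most 0.05 in the quasi-likelihood test of edgeR and a fold change of at least 1.2. Over all genes tested this rule called 0.206% higher in FL and 0.161% higher in LL. At an unadjusted p under 0.05, 9 members were higher in FL (22.5%, against 6.49% of all genes) and 2 were higher in LL (6.62% of all genes were). The 9 were HSPA2, HSPH1, HSPA8, HS90B_CHICK, HSPB7, DNAJC10, DNAJC11, DNAJC18 and CCT7, and the 2 were DNAJC15 and HSF3. The Wald test of DESeq2 called 1 member higher in FL (HSPA2, adjusted p = 0.00281) and 1 higher in LL (DNAJC15, adjusted p = 0.0173). It called 319 of the 11187 genes tested. Those higher in FL were 1.54% of all genes tested, and the rest of the 319 were higher in LL. Scaling to total counts in place of TMM moved the median log2 fold change of all genes to -0.06. With it, 3 members were higher in FL at an unadjusted p under 0.05 and 2 were higher in LL. The shares of all genes at that p were not computed with this scaling.

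In direction, 31 of 40 members had a higher estimate in FL, against 50.5% of all genes. The median log2 fold change of FL over LL was 0.17 over the members and 0.00 over all genes. With total count scaling 29 of 40 members were higher in FL, against 40.6% of all genes, and the medians were 0.11 for members and -0.06 for all genes. In bulk tissue a change in the share of a cell type and a change in RNA per cell cannot be told apart. The summed adipocyte markers overlapped between the lines and were highest in FL replicate 4 and lowest in LL replicate 1. SCD alone ran from 530.8 CPM in LL replicate 1 to 7876 CPM in FL replicate 4. PNPLA2 was higher in all FL birds (1730 to 2241, against 1275 to 1581 CPM in LL), and the other adipocyte markers overlapped. Of the stromal markers, PDGFRA was higher in all LL birds (183.8 to 226.3, against 100.4 to 158.7 CPM in FL), and the others overlapped. The part of cell type shares in these differences was not tested.

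**Figure D1:**
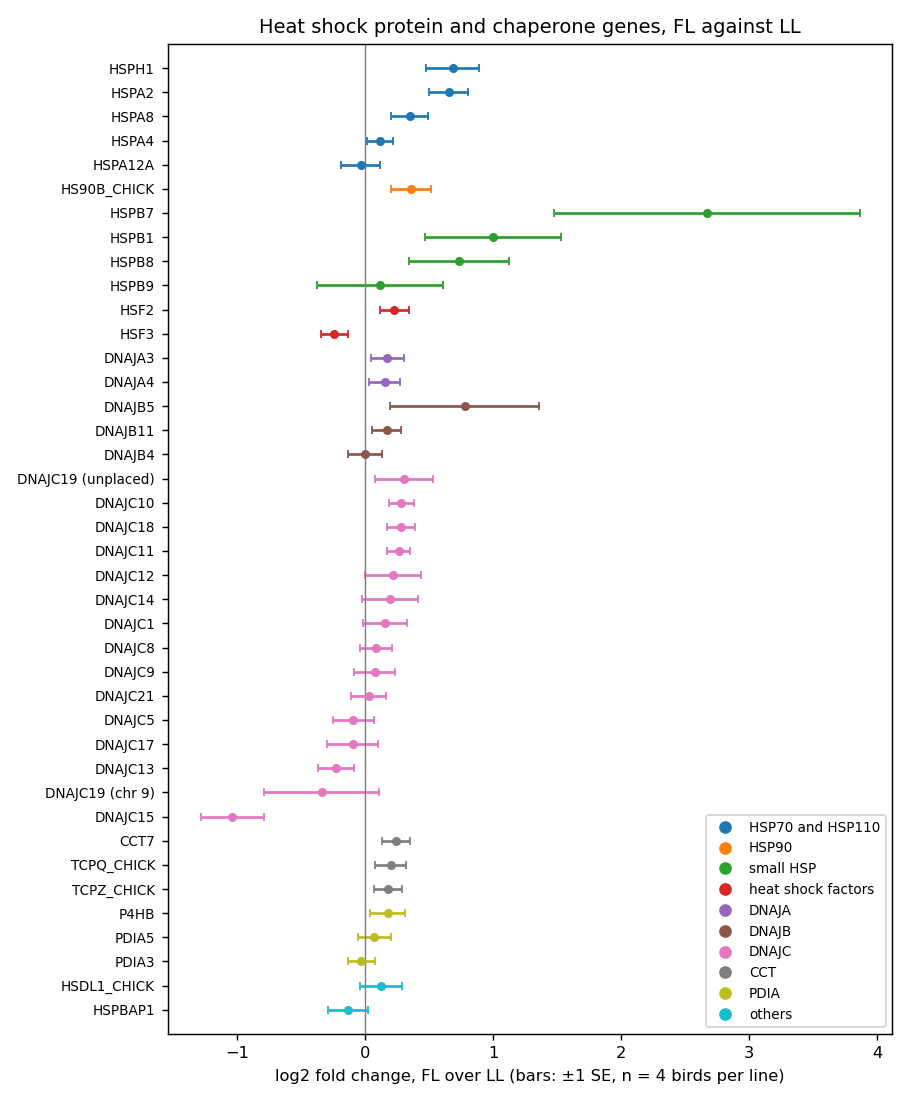
Log2 fold change of FL over LL (x axis) of the 40 tested members, grouped and coloured by family, with bars of ±1 SE from 4 birds per line. Most points lie at small positive values. HSPB7 has the longest bar, followed by DNAJB5, HSPB1, HSPB9, DNAJC19 on chromosome 9 and HSPB8, and DNAJC15 stands alone at -1.04.

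The birds of the lines did not overlap in 5 members. HSPA2, DNAJC10 and DNAJC11 were higher in all FL birds (3 members, against 3.76% of all genes), and DNAJC15 and HSF3 were higher in all LL birds (2 members, against 4.34% of all genes). Any gene whose birds do not overlap gives p = 0.0286 in the two-sided exact permutation test. This is the smallest value that the 70 arrangements of 4 birds against 4 allow, so it adds nothing to the lack of overlap.

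In the HSP70 and HSP110 family, 3 of 5 members were higher in FL at an unadjusted p under 0.05 (6.49% of all genes were). HSPA2, which the table lists as HSP70_CHICK, is a cytosolic HSP70 (chr5:55409946-55412250, build 2.1 of the chicken genome, as are all positions here). It had 1384, 996, 1342 and 1145 CPM in FL birds, against 609.2, 825.2, 904.2 and 755.2 CPM in LL birds. The lowest FL bird was above the highest LL bird. The log2 fold change was 0.65 ± 0.15 (SE), a fold change of 1.57, with an edgeR adjusted p of 0.116. HSPA2 became a DE gene with DESeq2, which called 1.54% of all genes higher in FL. It also did so with Scheme C runs alone (the 2 later runs of each bird), which called 0.799%. With Scheme C runs its log2 fold change was 0.62 and its edgeR adjusted p was 0.0432. In the other settings its edgeR adjusted p ran from 0.09 without FL replicate 4 to 0.316 with the first run of each bird alone.

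HSPH1, an HSP110 protein that recharges HSP70 with ATP (chr1:179284086-179306912), had 116.6, 84.8, 76.8 and 52.0 CPM in FL birds, against 58.0, 46.2, 53.4 and 47.5 CPM in LL birds. FL replicates 1 to 3 were above every LL bird, and FL replicate 4 lay inside the LL range. Its log2 fold change was 0.69 ± 0.21 (SE) with an edgeR adjusted p of 0.185. Without FL replicate 4, HSPH1 was the 1 member that met the rule for DE genes, with a log2 fold change of 0.86 ± 0.15 and an adjusted p of 0.0444, in a comparison that called 0.364% of all genes higher in FL. Without FL replicate 1, the highest bird, the log2 fold change was 0.47 and the adjusted p was 0.362.

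HSPA8 (HSP7C_CHICK, chr24:3110851-3116867) is the constitutive HSP70 of the cytosol, which also strips clathrin from vesicles. Its levels were 2118, 1731, 2030 and 1420 CPM in FL birds, against 1240, 1372, 1584 and 1533 CPM in LL birds. Again FL replicate 4 was the bird that overlapped, below LL replicates 3 and 4. The log2 fold change was 0.35 ± 0.15 (SE; adjusted p = 0.331 by edgeR) over 8 birds and 0.45 ± 0.12 (adjusted p = 0.135) without FL replicate 4. HSPA2 and HSPA8 are paralogs of similar sequence, and since reads that matched several places had been left out by the authors, their counts hold only the reads that told them apart.

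The remaining members of the family had smaller estimates. HSPA4, another exchange factor of the HSP110 type, averaged 185.3 ± 20.6 CPM in FL and 170.7 ± 9.46 CPM in LL (SD, n = 4 each), a log2 fold change of 0.12 with a 95% interval of -0.11 to 0.35. HSPA12A, a distant HSP70 relative, averaged 35.1 ± 5.91 CPM in FL and 35.8 ± 4.80 CPM in LL (SD), and its interval was -0.37 to 0.30.

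**Figure D2:**
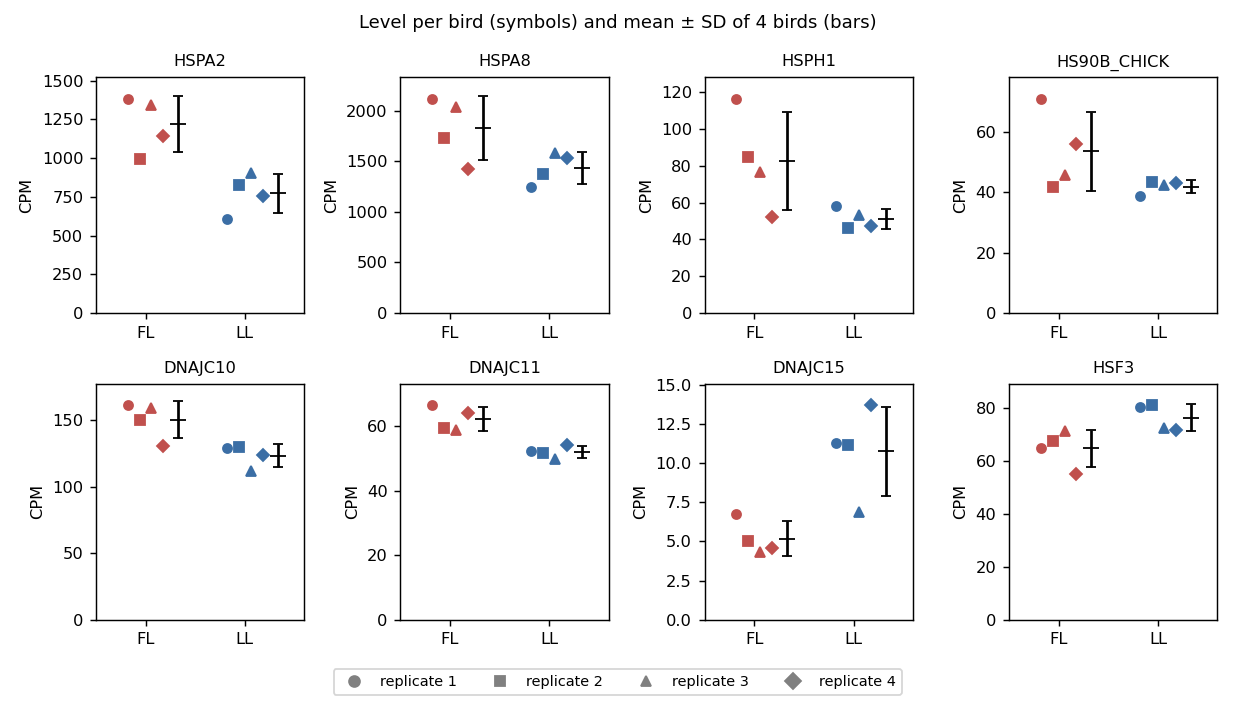
Level in CPM (y axes from 0) of 8 members in each bird, FL left of LL, with a symbol for each replicate and black bars for the mean ± SD of 4 birds. HSPA2, DNAJC10 and DNAJC11 are higher in all FL birds and DNAJC15 and HSF3 in all LL birds, and FL replicate 4 (diamond) is the lowest FL bird for HSPA8, HSPH1, DNAJC10 and HSF3.

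HS90B_CHICK (chr3:31508111-31514438), the beta form of cytosolic HSP90, which matures kinases and steroid receptors, was the only HSP90 gene the pattern took. It had 71.0, 41.6, 45.7 and 56.0 CPM in FL birds, against 38.7, 43.4, 42.4 and 43.0 CPM in LL birds. FL replicate 2 lay inside the LL range and FL replicate 1 was far above it. The log2 fold change was 0.36 ± 0.16 (SE; adjusted p = 0.360 by edgeR) over 8 birds, 0.34 ± 0.17 (adjusted p = 0.411) without FL replicate 4 and 0.20 (adjusted p = 0.639) without FL replicate 1. The alpha form HSP90AA1 stood under another identifier and had 1745, 1528, 1432 and 1145 CPM in FL birds, against 951.6, 1034, 1274 and 1199 CPM in LL birds. As for HSPA8 and HSPH1, FL replicate 4 was the 1 FL bird inside the LL range, and the log2 fold change was 0.39 ± 0.15 (SE; adjusted p = 0.283 by edgeR).

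The heat shock factors lay on opposite sides. HSF3, a heat shock factor described in chicken (chr4:251729-265494), had 65.0, 67.7, 71.2 and 55.2 CPM in FL birds, against 80.4, 81.0, 72.2 and 71.8 CPM in LL birds. The lines did not overlap, but FL replicate 3 and LL replicate 4 were close, and the log2 fold change was -0.24 ± 0.10 (SE; adjusted p = 0.363 by edgeR) over 8 birds and -0.17 ± 0.10 (adjusted p = 0.475) without FL replicate 4, the lowest bird. HSF2, which forms complexes with other heat shock factors, averaged 52.0 ± 7.48 CPM in FL and 44.3 ± 1.72 CPM in LL (SD, n = 4 each), a log2 fold change of 0.23 with a 95% interval of -0.03 to 0.48. It was 0.28 ± 0.12 (edgeR adjusted p = 0.306) without FL replicate 4 and 0.13 (adjusted p = 0.701) without FL replicate 3, the highest bird.

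Among the J-domain genes, 3 of the 15 tested DNAJC members were higher in FL at an unadjusted p under 0.05 (20%, against 6.49% of all genes). In LL 1 of the 15 was higher, near the 6.62% of all genes. None of the 2 DNAJA and 3 DNAJB members tested had such a p. DNAJC15 (chr1:171000389-171025089), a J protein of the inner mitochondrial membrane related to the import motor subunit DNAJC19, had the lowest estimate of all members. It had 6.76, 5.03, 4.34 and 4.56 CPM in FL birds, against 11.2, 11.2, 6.88 and 13.7 CPM in LL birds. Every LL bird was above every FL bird, although LL replicate 3 came close to FL replicate 1. The log2 fold change was -1.04 ± 0.25 (SE), a fold change of 0.487, with an edgeR adjusted p of 0.126, and a 95% interval of -1.58 to -0.49. With each bird left out in turn it stayed between -1.21 and -0.89. The related DNAJC19 was listed at 2 loci, at 6.40 ± 0.96 CPM in FL and 5.24 ± 1.39 CPM in LL for the unplaced locus, and 1.45 ± 0.45 CPM in FL and 1.86 ± 1.12 CPM in LL for the locus on chromosome 9 (SD, n = 4 each). Their log2 fold changes were 0.31 and -0.34, and both 95% intervals held 0.

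DNAJC10 (chr7:14967477-14987641), an ER J protein that reduces wrong disulfide bonds, had 161.2, 150.2, 159.2 and 131 CPM in FL birds, against 129, 129.7, 111.8 and 123.7 CPM in LL birds. FL replicate 4 was nearest to LL, and the log2 fold change was 0.28 ± 0.10 (SE; adjusted p = 0.251 by edgeR). DNAJC11 (chr21:517465-534193), a J protein of the mitochondrial membranes, had 66.4, 59.2, 58.9 and 64.1 CPM in FL birds, against 52.2, 51.7, 49.6 and 54.0 CPM in LL birds. The birds of each line were close together, and the log2 fold change was 0.26 ± 0.09 (SE; adjusted p = 0.229 by edgeR). DNAJC18, a J protein of the ER membrane (chr13:2171232-2183644), had 51.8, 53.0, 45.2 and 58.6 CPM in FL birds, against 45.3, 38.8, 41.6 and 46.1 CPM in LL birds. Only FL replicate 3 was inside the LL range, and the log2 fold change was 0.28 ± 0.11 (SE; adjusted p = 0.307 by edgeR) over 8 birds and 0.22 ± 0.11 (adjusted p = 0.430) without FL replicate 4, the highest bird.

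DNAJC13, which acts on endosomes, averaged 108.5 ± 16.8 CPM in FL and 127.1 ± 17.2 CPM in LL (SD, n = 4 each), and the 95% interval of its log2 fold change of -0.23 was -0.54 to 0.08, and without FL replicate 4, the lowest bird, the value was -0.14. DNAJC8, which accompanies the spliceosome, averaged 71.7 ± 5.02 CPM in FL and 67.6 ± 11.4 CPM in LL (SD), with an interval of -0.20 to 0.36. Of the DNAJA genes, the mitochondrial DNAJA3 averaged 51.2 ± 9.15 CPM in FL and 45.5 ± 2.77 CPM in LL. DNAJA4 averaged 41.4 ± 4.97 CPM in FL and 37.2 ± 3.59 CPM in LL, and the log2 fold changes of both DNAJA genes (0.17 and 0.15) had intervals that held 0. FL replicate 4 was the highest bird for both, and without it the values were 0.05 and 0.08. DNAJB11, a partner of the ER HSP70, averaged 65.7 ± 7.24 CPM in FL and 58.5 ± 5.49 CPM in LL, a log2 fold change of 0.17. DNAJB4, a cytosolic J protein, averaged 41.0 ± 6.08 CPM in FL and 41.0 ± 4.14 CPM in LL, a log2 fold change of 0.00 with an interval of -0.29 to 0.30.

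Among the small heat shock proteins, the estimates of HSPB7 and HSPB1 rested on 1 bird, that of HSPB8 did so in part, and that of HSPB9 was small. HSPB7, which is known from heart and skeletal muscle (chr21:4315610-4317614), had 3.16, 1.83, 1.085 and 76.2 CPM in FL birds, against 0.71, 2.66, 5.69 and 3.59 CPM in LL birds. FL replicate 4 was far above every other bird, and the other FL birds lay inside the LL range. The log2 fold change was 2.67 ± 1.19 (SE; adjusted p = 0.377 by edgeR) over 8 birds and -0.66 ± 0.59 (adjusted p = 0.671) without FL replicate 4. HSPB1, also known as HSP27, which protects actin filaments (chr19:4217985-4220758), had 61.9, 44.6, 53.7 and 278.9 CPM in FL birds, against 37.3, 55.5, 69.5 and 58.4 CPM in LL birds. Again the other FL birds were inside the LL range, and the log2 fold change was 1.00 ± 0.53 (edgeR adjusted p = 0.457) over 8 birds and -0.045 ± 0.19 (adjusted p = 0.945) without that bird.

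HSPB8, which works with BAG3 in the removal of misfolded proteins (chr15:9988133-9991114), had 50.2, 31.8, 28.2 and 85.6 CPM in FL birds, against 16.1, 27.6, 48.9 and 24.99 CPM in LL birds. FL replicate 4 was the highest bird but FL replicate 1 was above all LL birds too, and the log2 fold change was 0.73 ± 0.39 (edgeR adjusted p = 0.457) over 8 birds and 0.31 ± 0.33 (adjusted p = 0.732) without FL replicate 4. HSPB9, listed as HSP25 (chr27:4486326-4487451), had 7.08, 3.43, 10.7 and 19.97 CPM in FL birds, against 3.42, 9.57, 12.6 and 13.0 CPM in LL birds. Its log2 fold change was 0.12 ± 0.49 (edgeR adjusted p = 0.948) over 8 birds and -0.42 ± 0.45 (adjusted p = 0.730) without that bird. FL replicate 4 was thus the highest of 8 birds in all 4 tested small heat shock proteins, and the family's median log2 fold change was 0.87 over 8 birds and -0.23 without it.

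DNAJB5, a J protein of the cytosol (chrZ:7917674-7926826), had the same profile, with 1.85, 2.97, 2.85 and 14.5 CPM in FL birds, against 2.99, 2.83, 3.56 and 3.87 CPM in LL birds. Its log2 fold change was 0.78 ± 0.58 (SE; adjusted p = 0.620 by edgeR) over 8 birds and -0.41 ± 0.28 (adjusted p = 0.566) without FL replicate 4. HSPB3, a small heat shock protein known from muscle, was too low to be tested, with counts of 0, 1, 1 and 22 in FL birds and 0, 1, 0 and 2 in LL birds. In the other FL birds neither the small heat shock proteins and DNAJB5 nor ACTA1 and TNNT3 were above the LL range, except HSPB8 in FL replicate 1. The bird with the high ACTA1 and TNNT3 was also the highest in CCT7, DNAJA3, DNAJA4, DNAJC14, DNAJC18 and the unplaced DNAJC19, by smaller margins.

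**Figure D3:**
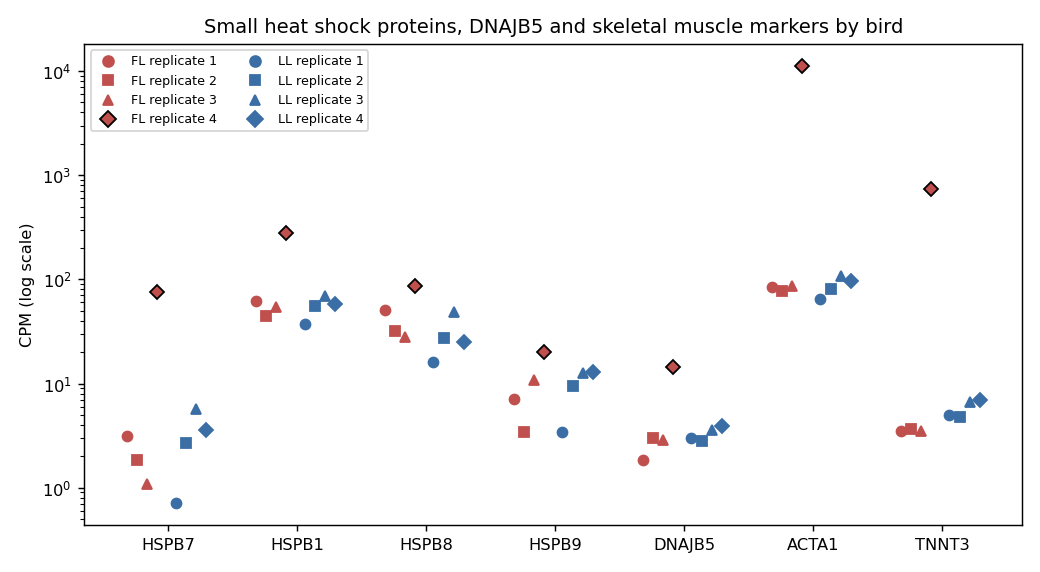
Level in CPM (log scale) of 4 small heat shock proteins, DNAJB5 and the skeletal muscle markers ACTA1 and TNNT3 in each bird, FL (red) left of LL (blue) for each gene. FL replicate 4, the outlined diamond, has 76.2 CPM of HSPB7, 278.9 of HSPB1, 11220 of ACTA1 and 739.5 of TNNT3 and is the highest bird for every gene shown.

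The CCT ring folds actin and tubulin, and its 3 members had similar small estimates, each higher in FL. CCT7, the eta subunit (chr4:93250240-93257872), had 124.2, 97.4, 110.5 and 127.5 CPM in FL birds, against 91.5, 90.5, 101.1 and 105.2 CPM in LL birds. The lines overlapped through FL replicate 2 alone, and the log2 fold change was 0.24 ± 0.11 (SE; adjusted p = 0.379 by edgeR) over 8 birds and 0.19 ± 0.11 (adjusted p = 0.476) without FL replicate 4, the highest bird. TCPZ_CHICK (zeta) averaged 164.4 ± 11.9 CPM in FL and 145.3 ± 15.4 CPM in LL, and TCPQ_CHICK (theta) averaged 132.7 ± 8.603 CPM in FL and 115.5 ± 17.6 CPM in LL (SD, n = 4 each). Their log2 fold changes were 0.18 and 0.20, with edgeR adjusted p of 0.509 and 0.514. CCT2, the beta subunit, stood under another identifier and had 176.4, 156.9, 153.3 and 156.2 CPM in FL birds, against 135, 117.3, 117.4 and 131.2 CPM in LL birds. Its birds did not overlap, and its log2 fold change was 0.36 ± 0.10 (SE) with an adjusted p of 0.152 in edgeR, while DESeq2 called it among 319 genes.

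No tested PDIA member had an unadjusted p under 0.05 over all 8 birds with edgeR. P4HB (PDIA1_CHICK), the main isomerase of the ER and a subunit of collagen prolyl hydroxylase, had 645.7, 605.1, 617.2 and 434 CPM in FL birds, against 528.1, 486.3, 461.7 and 558.7 CPM in LL birds. FL replicates 1 to 3 were above every LL bird and FL replicate 4 was below all of them, and the log2 fold change was 0.18 ± 0.14 (SE; adjusted p = 0.631 by edgeR) over 8 birds and 0.29 ± 0.10 (adjusted p = 0.224; unadjusted p under 0.05) without it. PDIA3, which folds glycoproteins with calnexin and calreticulin, averaged 440.1 ± 31.3 CPM in FL and 449.2 ± 45.9 CPM in LL, and PDIA5 averaged 63.0 ± 5.89 CPM in FL and 59.8 ± 9.65 CPM in LL (SD, n = 4 each). Their intervals were -0.27 to 0.21 and -0.21 to 0.36.

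Of the remaining matches, HSPBAP1, a protein that binds HSPB1, averaged 8.39 ± 0.58 CPM in FL and 9.18 ± 0.94 CPM in LL (SD), with an interval of the log2 fold change of -0.48 to 0.21. HSDL1_CHICK matched the pattern by its letters only, since it is a hydroxysteroid dehydrogenase-like gene and no chaperone, and without it 30 of 39 members had a higher estimate in FL. Besides HSPB3, the genes too low to be tested were DNAJB13, DNAJC6, PDIA2 and DNAJC5B, the last with 0 counts in all 8 birds, where a count of 0 allows up to 0.233 to 0.698 CPM before TMM scaling.

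**Figure D4:**
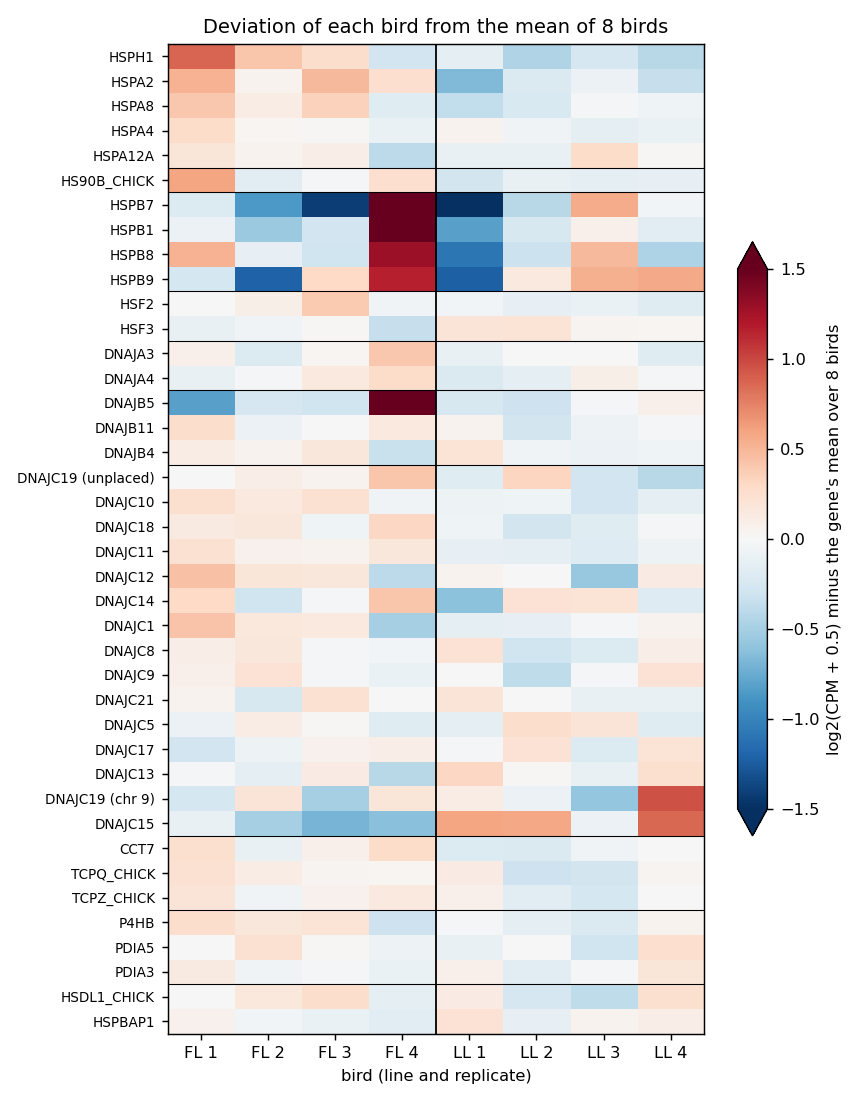
Deviation of each bird (columns, FL left of LL) from the mean of the 8 birds for each tested member (rows, in families), as log2(CPM + 0.5) minus the mean, with colours that end at ±1.5. FL replicate 1 is red in most HSP70, HSP110 and CCT rows, and FL replicate 4 is dark red in the small heat shock proteins and DNAJB5 and blue in HSPA8, HSPH1, HSPA12A and P4HB.

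The members did not move as 1 block across birds. FL replicate 1 was the highest of 8 birds in 13 of 40 members, and FL replicate 4 was the highest in 11 and the lowest in 8. In LL, replicates 1, 2 and 3 were the lowest in 9, 8 and 8 members, while LL replicate 4 was the lowest in 2. Such counts were not made over all genes tested, so they cannot be read as a trait of the members. The median deviation of the 5 HSP70 and HSP110 members from their means over 8 birds was 0.40, 0.05, 0.27 and -0.18 on the log2 scale in FL birds, against -0.13, -0.22, -0.09 and -0.09 in LL birds. For the 4 small heat shock proteins it was -0.15, -0.71, -0.29 and 1.68 in FL birds, against -1.15, -0.28, 0.51 and -0.11 in LL birds. By these medians FL replicate 4 lay inside the LL range in the HSP70 family and above it in the small heat shock proteins. Single HSP70 members differed. In FL replicate 4, HSPA2 was above every LL bird (1145 CPM, against 609.2 to 904.2). HSPA12A was below every LL bird (26.6 CPM, against 32.4 to 42.7).

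Without FL replicate 4, 28 of 40 members had a higher estimate in FL, against 48.4% of all genes. The median log2 fold change of members was 0.12 against -0.01 of all genes. In this comparison 8 members were higher in FL at an unadjusted p under 0.05 (6.95% of all genes were) and 1 was higher in LL (7.68% of all genes). Between 3 FL and 4 LL birds, 9 members did not overlap and were higher in FL, where 6.95% of all genes did so, and 2 did not overlap and were higher in LL, where the share of all genes was also 6.95%. HSPH1 and HSPA8 were among the 9, together with HSPA2, DNAJC10 and DNAJC11 from the comparison of all birds. By unadjusted p, 5 members were higher in FL both with and without FL replicate 4 (HSPA2, HSPH1, HSPA8, DNAJC10 and DNAJC11), 4 were so only with it (HS90B_CHICK, HSPB7, DNAJC18 and CCT7) and 3 only without it (DNAJC1, HSF2 and P4HB). DNAJC1 had a log2 fold change of 0.15 over 8 birds and 0.31 ± 0.11 (SE) without FL replicate 4. On the LL side DNAJC15 was in both comparisons and HSF3 only in that of all birds.

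**Figure D5:**
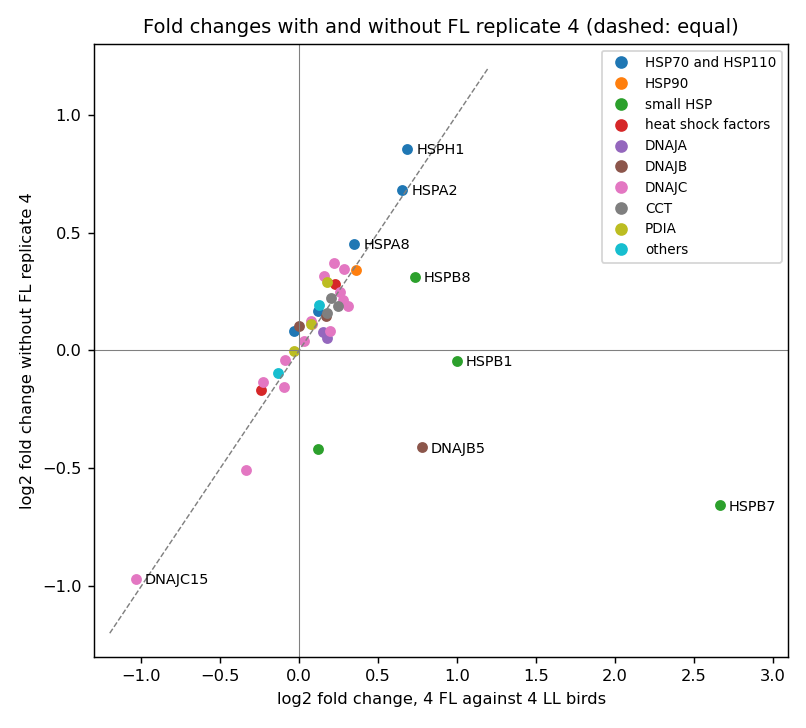
Log2 fold change of FL over LL of the 40 tested members with all 8 birds (x axis) and without FL replicate 4 (y axis), coloured by family, with a dashed line where both are equal. HSPH1, HSPA2, HSPA8 and DNAJC15 lie near the line, and HSPB7, HSPB1, HSPB9 and DNAJB5 fall below 0 without that bird.

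Chaperone genes that the pattern did not take were read from 6 lists, some of which share genes. Not every symbol of a list was found, and none of the genes tested was called by edgeR. CRYAB, a small heat shock protein, did not pass the count filter. It had 3, 2, 1 and 401 counts in FL birds, against 3, 3, 3 and 5 in LL birds. The co-chaperone UNC45B, also untested, had 1, 0, 0 and 204 counts in FL birds, against 1, 0, 3 and 1 in LL birds. Counts of genes at an unadjusted p under 0.05 stand beside 6.49% of all genes higher in FL and 6.62% higher in LL. In the list of chaperones under other identifiers, 4 of 16 tested genes were higher in FL at an unadjusted p under 0.05 (HSP90AA1, HSPD1, CCT2 and HSPA13) and 1 was higher in LL (DNAJC3), and the median log2 fold change was 0.13. HSPD1, the mitochondrial HSP60, had 333.6, 287.4, 281.8 and 274.2 CPM in FL birds, against 255.6, 228, 254.7 and 242.9 CPM in LL birds. Its birds did not overlap, and its log2 fold change was 0.26 ± 0.10 (SE; adjusted p = 0.279 by edgeR). HSPA13, a microsomal HSP70, had 31.1, 30.0, 40.8 and 21.5 CPM in FL birds, against 24.9, 20.4, 20.1 and 19.9 CPM in LL birds. Here too FL replicate 4 was the 1 FL bird inside the LL range, and the log2 fold change was 0.53 ± 0.18 (SE; adjusted p = 0.239 by edgeR). DNAJC3, an ER J protein that also inhibits the stress kinase PERK, was the exception in direction, with 238.7, 243.3, 237.6 and 198.9 CPM in FL birds, against 306.4, 269.5, 288.2 and 307.5 CPM in LL birds. Its birds did not overlap, its log2 fold change was -0.35 ± 0.10 (SE; adjusted p = 0.172 by edgeR), and DESeq2 called it among 319 genes.

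Among the co-chaperones of HSP70 and HSP90, 3 of 18 tested genes (16.7%, against 6.49% of all genes) were higher in FL at an unadjusted p under 0.05, none was higher in LL, and the median log2 fold change was 0.21. SGTB, a co-chaperone that binds HSP70, had 412.6, 382.1, 457.6 and 294.4 CPM in FL birds, against 297.7, 264.3, 288.4 and 318.6 CPM in LL birds. FL replicate 4 was once more the bird that overlapped, and the log2 fold change was 0.40 ± 0.14 (SE; adjusted p = 0.231 by edgeR). ST13, which stabilises HSP70 bound to ADP, had 324.9, 287.2, 279.1 and 278.7 CPM in FL birds, against 220.4, 210.3, 264.5 and 271.9 CPM in LL birds. Its birds did not overlap, and the log2 fold change was 0.27 ± 0.11 (SE; adjusted p = 0.331 by edgeR).

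The ER folding enzymes and chaperones had 3 of 28 tested genes higher in FL (10.7%, against 6.49% of all genes) and 2 higher in LL (6.62% of all genes) at an unadjusted p under 0.05, shares near those of all genes, with a median log2 fold change of 0.09. Entries on chromosomes 3 and 13 both carried the name CANX in this list, and which of them is calnexin was not checked. The counts may thus hold a gene that is no ER chaperone. The 2 genes of this list with the highest CPM were close in both lines. HSP90B1, the HSP90 of the ER, had a log2 fold change of -0.01 ± 0.10 (SE; adjusted p = 0.985 by edgeR) and the collagen chaperone SERPINH1 one of 0.01 ± 0.13 (SE; adjusted p = 0.990 by edgeR). HSPA5, the HSP70 of the ER, averaged 950.9 ± 106.5 CPM in FL and 784.8 ± 124.5 CPM in LL (SD). Its log2 fold change was 0.28 ± 0.14 (SE; adjusted p = 0.416 by edgeR). Mitochondrial folding and protease genes had 2 of 12 higher in FL (16.7%), none higher in LL and a median of 0.12, and HSPA9, the mitochondrial HSP70, had 0.16 ± 0.11 (SE; adjusted p = 0.578 by edgeR). Prefoldin, tubulin cofactors and CCT partners had 1 of 10 higher in FL, also near the share of all genes, none higher in LL and a median of 0.04. Its genes with the highest CPM, the tubulin cofactors TBCD and TBCA, had log2 fold changes of -0.01 and 0.10 with 95% intervals of -0.20 to 0.18 and -0.16 to 0.36. The list of regulators of the heat shock and unfolded protein responses had 27 symbols, of which 2 were members. XBP1, ATF4 and DDIT3 were among the symbols not found. Entries on chromosomes 14 and 18 both carried the name ERN1. Of the 15 entries tested, none had an unadjusted p under 0.05 in either direction with edgeR, and their median was -0.04. Those with the highest CPM, the protease MBTPS1, which activates ATF6, and the autophagy receptor SQSTM1, had log2 fold changes of -0.17 and 0.23 with 95% intervals of -0.38 to 0.05 and -0.04 to 0.50.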

How the data were processed

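The authors mapped paired-end RNA-Seq reads to build 2.1 of the chicken genome in CLC Genomics Workbench with Ensembl genes and added flanking sequence, discarded reads with several matches, and deposited unique exon read counts per gene and run without normalization (CASAVA 1.8.2 is named in the submitters' processing notes). The table also holds 24 columns of scaled values of single runs and the authors' means, fold changes and p-values, none of which were used. According to the study, the first run of a bird was in Scheme A or B and the other 2 in Scheme C. The labels list the sequencing schemes in another order and name no run's scheme, so results from Scheme C or first runs rest on the study's account.

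The counts of the 3 runs of each bird were summed, filtered with filterByExpr, scaled by TMM and fitted in edgeR 4.0.16 (R 4.3.3), whose quasi-likelihood F test gave the p-values, adjusted after Benjamini and Hochberg over 11187 genes, after the code had been tested on simulated data. SE is the absolute log2 fold change over the square root of F, and 95% intervals use the total degrees of freedom of that fit. Alternatives were DESeq2 1.42.0, total count scaling, no filter, at least 10 counts in every bird, Scheme C or first runs alone, robust dispersion, no fold threshold, the replicate number as a block, and each bird left out. The limit for a count of 0 covers counting error alone, since reads had no molecular identifiers. Python 3.11.15 with matplotlib 3.10.9 drew the figures.

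Members and lists were chosen with earlier results of these data known. Members were named in the text if called, if their unadjusted p was under 0.05, or if among the 3 with the highest mean CPM of a family, HSPA12A, HSPB9, HSPB3, DNAJC1, DNAJC14 and DNAJC19 being added after their values were seen, and other genes if called, if among the 2 with the highest mean CPM of a list, or, for chaperones under other identifiers, at an unadjusted p under 0.05. Of the other genes, HSPA5, CRYAB, UNC45B and ERN1 were also added after their values were seen. Names came from the deposited identifiers, the study's supplementary tables and UniProt entry names. Promoter and protein sequences were not used here. Flanking sequence and overlapping or near-identical genes make single counts uncertain.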

Additional observations from a re-analysis of the deposited data

Results flagged for a closer look

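In 4 of 58 member and line groups with 4 birds, 1 bird lay farther from the others than the 95% critical value of Dixon's test, a test that chance passes in about 1 of 20 groups. FL replicate 4 had 76.2 CPM of HSPB7, against 1.085 to 3.16 CPM in the other FL birds. The same bird had 278.9 CPM of HSPB1, against 44.6 to 61.9 CPM in the other FL birds, and 14.5 CPM of DNAJB5, against 1.85 to 2.97 CPM. LL replicate 1 had 47.1 CPM of DNAJB4, against 38.2 to 39.3 CPM in the other LL birds.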

How the results depend on the processing

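The count of DE genes over the whole table was 41 and moved with most settings: 319 with DESeq2, 27 with no low count filter, 133 with Scheme C runs only, 1 with first runs only, 8 with the replicate block and 2 to 65 with 1 bird left out. Members called higher in FL were 0, against 1 with DESeq2, 1 with Scheme C runs and 0 to 1 with 1 bird left out, and members called higher in LL were 0, against 1 with DESeq2. At an unadjusted p under 0.05, the 9 members higher in FL became 3 with total count scaling, 5 with first runs, 5 with the replicate block and 5 to 9 with 1 bird left out, and the 2 higher in LL became 1 with DESeq2, no filter, first runs or the block and 1 to 2 with 1 bird left out. The 3 members that did not overlap and were higher in FL became 1 with first runs and 4 to 9 with 1 bird left out, and the 2 higher in LL became 1 with total count scaling and 0 with first runs. Among all genes, 6.49% were higher in FL at an unadjusted p under 0.05 and 6.62% were higher in LL. Without FL replicate 4 these shares were 6.95% and 7.68%. Of all genes, 3.76% did not overlap and were higher in FL, and 4.34% did so in LL. Without that bird both shares were 6.95%. In the remaining settings these shares were not computed, so the member counts there cannot be set beside those of all genes. Leaving a bird out makes it easier for birds not to overlap, and the causes of the other shifts were not tested. Deviations of same-numbered FL and LL birds correlated at 0.223, -0.065, -0.113 and -0.063. Differently numbered birds were not compared, so these values cannot decide whether the replicate numbers pair the birds. The block gave HSPA2 a log2 fold change of 0.66 with an edgeR adjusted p of 0.199. Of the values of 43 named genes under all alternatives, 652 kept their direction and side of the threshold, 6 passed it (HSPA2, DNAJC15, CCT2 and DNAJC3 with DESeq2, HSPA2 with Scheme C runs, HSPH1 without FL replicate 4) and 28 changed sign. Changes of sign without single birds came from log2 fold changes in these ranges: -0.66 (without FL replicate 4) to 3.19 for HSPB7, -0.045 (the same bird) to 1.25 for HSPB1, -0.41 (the same bird) to 1.09 for DNAJB5, -0.055 to 0.10 for DNAJB4, -0.084 to 0.029 for PDIA3, -0.011 to 0.18 for PDIA5, -0.055 to 0.031 for HSP90B1, -0.057 to 0.077 for SERPINH1 and -0.031 to 0.021 for TBCD. In other settings DNAJB4 had -0.051 with total count scaling, -0.0514 with Scheme C runs and -0.0054 with the block, PDIA3 had 0.0018 with Scheme C runs, HSP90B1 had 0.019 and TBCD 0.055 with first runs, and SERPINH1 had -0.043 with total count scaling. DESeq2 gave no p for HSPB1 and HSPB7. Of the 5 members too low to be tested, DNAJB13 had 2 to 13 counts and DNAJC6 had 4 to 14 counts per bird. HSPB3 and PDIA2 had counts in some birds only. For DNAJC5B, and for the birds with 0 counts of HSPB3 or PDIA2, low depth and lack of expression cannot be told apart.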
